A study of Bos taurus with 18 samples.

Results

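The CpGs described here form 1 stretch of bovine chromosome 8, between positions 56718320 and 56852439 of the bosTau8 build. The study's tables used here list CpGs of this stretch under TLE4 as the nearest start site, from the first position to 56848053. Neighbouring CpGs were joined where the gap was at most 10 kb, and the joined stretch holding the cluster at 56719064 to 56719176 was kept whole. It held 715 of the 31500 CpGs measured, over 134 kb, of which 688 lie between the first and last CpG listed under TLE4 and 27 beyond the last. The largest gap within it was 8497 bp, whereas the nearest measured CpGs on the same chromosome lay 8.78 Mb before it and 0.79 Mb after it. Joining at gaps up to 100 kb therefore kept the same 715 CpGs, and joining at gaps up to 1 kb kept 38. The study's tables place the TLE4 start site outside the region, at several times the region's own length.

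The cells were EBTr, a fibroblast line grown from bovine embryonic trachea, and methylation was read by reduced representation bisulfite sequencing, which samples the CpG-rich fragments released by a restriction enzyme. There were 6 treatments with 3 libraries each (18 in all). Low medium held 1 g/L of glucose and High medium held 4.5 g/L. Each was used without added epigenetic modifiers (EM), as Low Control and High Control, or with folate, choline, vitamin B12 and methionine raised to 2.5 times (Low ×2.5, High ×2.5) or 5 times (Low ×5, High ×5) the Control level. The labels give these multiples for every nutrient, while the study's methods give methionine at 2 times in both supplemented media. All treatments share the 1 line and the same passage scheme, and nothing in the labels says that the 3 libraries of a treatment came from separate cultures, so each p-value measures only the spread between these libraries, which may be technical.

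TLE4 belongs to the Groucho (transducin-like enhancer) family. Its proteins do not bind DNA themselves: factors such as HES, RUNX and TCF/LEF proteins recruit them to genes, where they help to keep Notch and Wnt targets silent. Methyl groups for DNA come from S-adenosylmethionine, which cells make from methionine, with folate, vitamin B12 and choline feeding the cycle that restores methionine. No expression was measured here, and the tie to TLE4 is by the nearest start site alone. In the ARS-UCD2.0 annotation, 6 entries lie between TLE4 and its family member TLE1 on the same chromosome, of which NPAP1 is the 1 protein-coding gene, 3 are long non-coding RNAs and 2 are pseudogenes.

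The values were log2 ratios of methylated to unmethylated reads (M-values), and they are given here also as levels, that is, the percentage methylated that each ratio stands for. Read counts were not given and depth was not worked out from the levels, so no counting error is given here. The region was mostly methylated. The mean level of a CpG over the 18 libraries had a median of 77.4% (quartiles 61.3% and 86.3%), beside 75.5% over the rest of the table. Of the 715 CpGs, 318 (44.5%) were above 80%, 387 (54.1%) lay from 20% to 80%, and 10 (1.4%) were under 20%. The same shares in the rest of the table were 40.8%, 55.8% and 3.41%. The region's mean exceeded that of the rest in 18 of 18 libraries, by 2.08 to 3.11 percentage points.

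**Figure D1:**
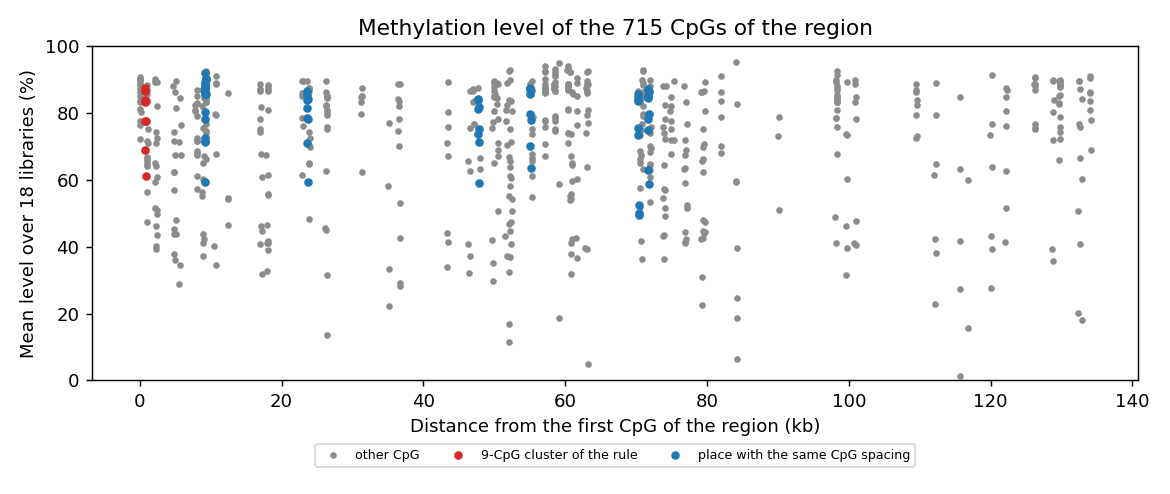
Mean methylation level over 18 libraries (%, vertical axis) of each of the 715 CpGs against its distance from the region's first CpG (kb, horizontal axis). Red points are the 9-CpG cluster that chose the region, blue points the 6 other places with the same CpG spacing (any CpG inside the place is blue), and grey points all other CpGs; most points lie above 60%, and a few single CpGs drop below 20%.

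Averaged over its 715 CpGs, the region differed little among treatments. The level was 70.6% ± 1.76 (SD, n = 3) in Low Control, 72.0% ± 0.242 in Low ×2.5 and 72.3% ± 0.529 in Low ×5. It was 71.8% ± 0.636 in High Control, 71.2% ± 1.21 in High ×2.5 and 70.6% ± 0.793 in High ×5. Low Control had the widest spread: its replicate 1 stood at 72.6%, and its replicates 2 and 3 at 69.9% and 69.2%. The last value was the lowest of the 18. The rest of the table followed the same order in Low medium, with 68.1% ± 1.24 in Low Control, 69.3% ± 0.348 in Low ×2.5 and 69.4% ± 0.487 in Low ×5. Since the region moved with the table as a whole, directions below are also given after each library was centred on its own median M-value.

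Levels varied far more among CpGs than among libraries. The region fell into 66 clusters of at least 3 CpGs with gaps under 100 bp, which held 697 of its CpGs. Cluster means ran from 43.7% (5 CpGs, 56833976 to 56834057) to 85.8% (16 CpGs, 56778647 to 56778767), with 17 clusters above 80%, 44 from 50% to 80% and 5 below 50%. There were 76 pairs of adjacent positions, as the 2 strands of 1 CpG would give. Their mean levels differed by a median of 1.28 points, and 69 of the 76 were within 10 points. The widest pair was 56770406 at 11.4% and 56770407 at 46.6%. After treatment means were removed, CpGs 2 to 10 bp apart had a median correlation of 0.27 over the 18 libraries (327 pairs), which share library and depth. The 76 pairs 1 bp apart had a median of 0.07. At 11 to 50 bp it was 0.12 (1469 pairs), and beyond 1000 bp it was 0.03 to 0.04.

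The lowest CpG was 56834043, with a mean level of 1.20% and a highest library of 2.63%. Its cluster neighbours stood at 63.3%, 27.4%, 41.7% and 84.7%. The exact spacing of that 5-CpG cluster occurred at 5 other places in the table, where the matching CpG had levels from 26.8% to 92.3% (median 90.8%). The highest CpG was 56802448, at 95.1%. It shares a cluster with 56802488, a CpG at 24.7%. The widest range was at 56742173, which stood at 17.6% in Low Control replicate 3 and from 55.6% to 78.3% in the other 17 libraries, and which passed in no contrast.

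The 9 CpGs at 56719064 to 56719176 chose the region, and they were selected on their measured values. They are therefore described without a test. Because this cluster stood out most in Low ×5 vs. Low Control and in the difference of EM effects between High and Low medium at ×5, those comparisons are treated as used for the choice, and their values for any CpG of the region are given without a p-value. The cluster's mean level was 77.1%, 73.3% and 73.2% in the 3 Low Control libraries. It was 82.5%, 79.9% and 79.4% in Low ×2.5, and 81.4%, 82.6% and 82.4% in Low ×5. Every EM-supplemented Low library was above every Low Control library. In High medium the order turned: 81.6%, 80.6% and 80.9% in High Control, 79.8%, 78.4% and 76.3% in High ×2.5, and 78.9%, 75.0% and 76.7% in High ×5, with every supplemented library below every High Control library. These levels are not adjusted for read depth. In Low Control replicate 2, 56719095, 56719100, 56719102, 56719174 and 56719176 all stood at 73.3%. In Low Control replicate 3, 56719064, 56719095 and 56719159 all stood at 62.5%. Such repeated values can arise where few reads cover a CpG. The offset of the M-values draws high levels towards the middle, and its part and that of depth were not tested.

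On the log2 scale the mean difference of the 9 CpGs was 0.87 in Low ×5 vs. Low Control (0.71 after centring), with 8 of 9 CpGs higher in Low ×5. It was 0.54 in Low ×2.5 vs. Low Control and 0.62 in High Control vs. Low Control, each with 9 of 9 CpGs in that direction. High ×5 vs. High Control gave −0.39, with 1 of 9 CpGs above 0, and High ×5 vs. Low ×5 −0.64, with 2 of 9. High ×2.5 vs. High Control gave −0.21, with 4 of 9 CpGs above 0, and the value was −0.075 without High ×2.5 replicate 3 and −0.32 without High ×2.5 replicate 1. The High minus Low difference of the EM effect at ×5 was −1.26 (−1.01 after centring). These comparisons share treatments, so they are not separate evidence. Without Low Control replicate 1 the difference in Low ×5 vs. Low Control was 0.97.

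The 9 CpGs did not share the difference equally. The widest was at 56719095, which stood at 81.0%, 73.3% and 62.5% in Low Control and at 85.7%, 96.4% and 90.2% in Low ×5, a log2 difference of 2.08. For 56719105, 56719084, 56719102 and 56719100 the values were 1.33, 1.17, 1.13 and 1.09. These 5 CpGs are direct neighbours. For 56719174 it was 0.82. The outer CpG 56719064 went the other way, with 72.4%, 66.7% and 62.5% in Low Control, 68.3%, 63.2% and 58.8% in Low ×5 and a difference of −0.24. At 56719176 and 56719159 the differences were 0.25 and 0.20.

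The spacing of these 9 CpGs, at 0, 20, 31, 36, 38, 41, 95, 110 and 112 bp from the first, was not particular to the cluster. Counting a place where at least 8 of the 9 positions held a measured CpG, in either orientation, it occurred at 76 places on 21 chromosomes. All 9 positions matched at 53 of them and 8 matched at 23. There were 46 places in the cluster's orientation and 30 inverted. The region held 7 of the 76: the cluster itself and places starting 8.43, 22.9, 47.0, 54.3, 69.5 and 70.9 kb after it, all in the same orientation. Shared spacing went well beyond this cluster. Of the region's CpGs, 619 (86.6%) lay in a run of at least 6 CpGs whose exact gaps recurred elsewhere in the table, beside 73.9% in the rest, and 501 (70.1%) lay in a run that recurred within the region. No sequence was compared, and whether reads of like places were exchanged between them was not tested.

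**Figure D2:**
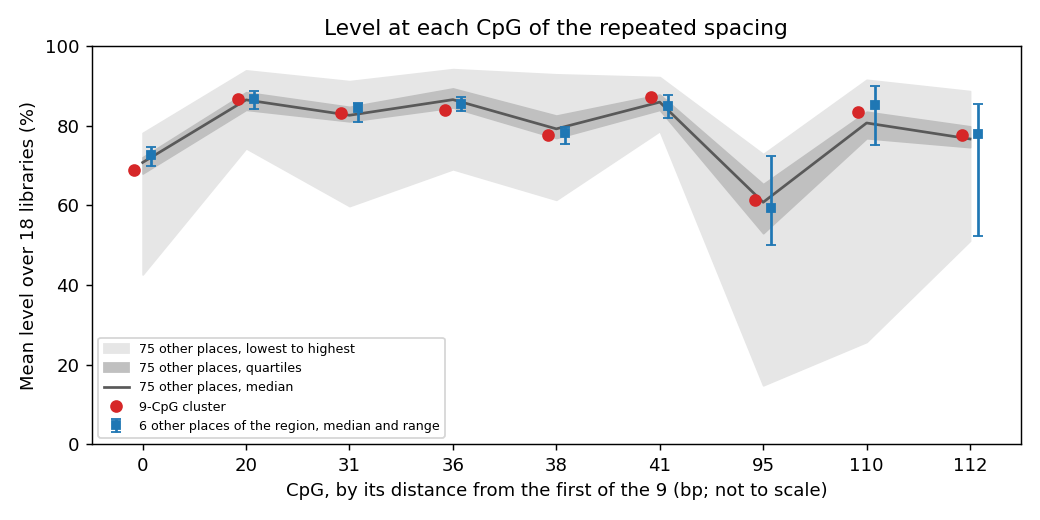
Mean level over 18 libraries (%, vertical axis) at each of the 9 CpGs, ordered by distance from the first (bp, horizontal axis, not to scale). Red points are the 9-CpG cluster, blue squares with bars the median and range of the 6 other places of the region, and the line with its grey bands the median, quartiles and range of all 75 other places; cluster and median follow each other, both lowest at the seventh CpG.

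The places had like levels CpG by CpG, a measure the choice of the region did not use. The first CpG stood at 68.9% in the cluster and at a median of 70.7% over the other places. The seventh was the lowest in both, at 61.2% and 60.8%, and the sixth stood at 87.3% and 85.9%. The profile of the other places correlated with that of the cluster with a median r of 0.92 and a lowest r of 0.58, over the 8 or 9 CpGs matched. Averaged over its matched CpGs, a place had a level from 65.1% to 82.9% (median 78.8%), and the cluster 78.9%.

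The treatment differences were less alike. In Low ×5 vs. Low Control the cluster's 0.87 was the highest mean log2 difference of the 76 places, as a value that chose it may be. The other 75 had a median of 0.18, with a range from −0.43 to 0.78. Within the region, the place 22.9 kb after the cluster had 0.78 and that at 47.0 kb had 0.74, whereas those at 8.43, 54.3, 69.5 and 70.9 kb had 0.13, 0.12, −0.04 and 0.18. The difference was positive at 64 of the 75 other places as deposited and at 41 of 75 after centring, when their median was 0.02. Of the 652 CpGs in the other places, 16 (2.45%, beside 2.4% of the table) were called in that contrast.

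The place at 47.0 kb stood out by its levels per library. It had 75.7%, 68.3% and 65.8% in Low Control, 78.9%, 81.9% and 82.8% in Low ×2.5, and 79.2%, 76.9% and 79.5% in Low ×5. Low Control did not overlap either supplemented Low treatment. The place at 22.9 kb, with 78.5%, 73.5% and 67.3% in Low Control and 81.4%, 80.3% and 82.3% in Low ×2.5, did not overlap in that pair. It did overlap with Low ×5, at 81.7%, 84.7% and 78.1%. The place at 8.43 kb had 82.5%, 82.3% and 80.1% in Low Control and 84.2%, 84.2% and 83.9% in Low ×2.5, which did not overlap either, over a smaller distance. At the places at 22.9 and 47.0 kb, as in the cluster, Low Control replicate 1 was the highest of its treatment. The levels of these places are not adjusted for read depth either, and the part of depth and offset in them was not tested.

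**Figure D3:**
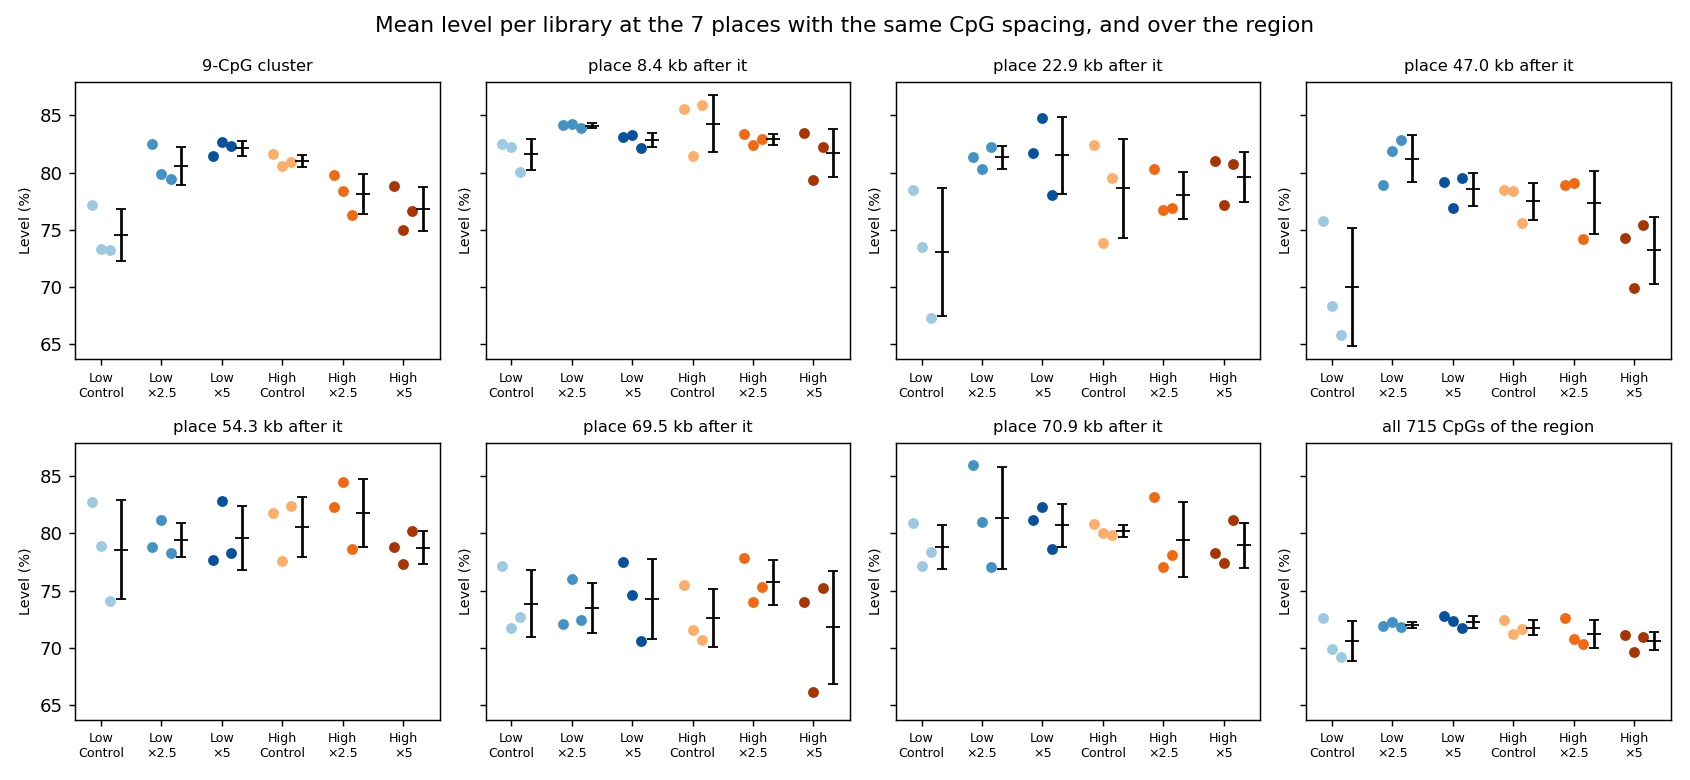
Mean level (%, vertical axis, from about 64% to 88%) in each library, by treatment (horizontal axis), at the 7 places of the region with the same CpG spacing and over all 715 CpGs. Points are libraries, and the bar beside them is the mean ± SD (n = 3). Before centring, the Low Control libraries lie below all Low ×2.5 libraries at the cluster and at the places 8.43, 22.9 and 47.0 kb after it. How often this occurs over the whole table was not counted. Levels are not adjusted for read depth.

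Single CpGs were tested with limma, fitted to all 31500 CpGs and all 18 libraries with 1 mean per treatment. Calls were made at the study's threshold, an unadjusted p below 0.01, and a called CpG is termed methylated or demethylated where the first treatment named was higher or lower. The study called with edgeR, so these are not its calls. It reported more methylated than demethylated cytosines in High ×2.5 vs. High Control and in High ×2.5 vs. Low ×2.5. Here the whole table had 108 methylated and 213 demethylated in the former, and 97 and 220 in the latter. For Low ×5 vs. Low Control it reported equal numbers, and here there were 562 methylated and 195 demethylated. In its other contrasts it reported more demethylated, as found here for High ×5 against High Control, High ×2.5 and Low ×5. More were methylated here in Low ×2.5 vs. Low Control (481 and 148) and High Control vs. Low Control (435 and 171). So it was in Low ×5 vs. Low ×2.5 (72 and 45) and High ×5 vs. Low Control (296 and 256). No CpG of the region reached an adjusted p (limma, Benjamini-Hochberg over all 31500) below 0.05 in any comparison. At an unadjusted p below 0.05 there were from 19 (2.66%, Low ×5 vs. Low ×2.5) to 82 (11.5%, Low ×5 vs. Low Control, treated as used). The share of the whole table at that threshold was not counted. The lowest adjusted p outside the comparisons treated as used was 0.340. Adjusted p-values below come from the same limma fit. In at least 1 of the 10 contrasts 80 of the 715 CpGs were called (11.2%, beside 9.68% of the whole table). Of these, 50 were called in 1 contrast, 17 in 2, 9 in 3 and 4 in 4, a split not made for the whole table.

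EM supplementation in High medium gave calls mostly towards demethylation as deposited, but not at ×2.5 after centring. In High ×5 vs. High Control 13 CpGs were called (1.82%, beside 1.37% of all CpGs). Methylated were 4 (background 0.292%) and demethylated 9 (1.08%), which became 5 and 7 after centring. High ×2.5 vs. High Control had 12 (1.68%, beside 1.02%), 5 methylated (0.343%) and 7 demethylated (0.676%), or 7 and 5 after centring. High ×5 vs. High ×2.5 had 12 (beside 1.47%), 4 methylated (0.454%) and 8 demethylated (1.02%), or 5 and 7. The first 2 counts rest on High Control replicate 2: without it they were 7 and 6.

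In Low medium the calls as deposited went mostly towards methylation, but not at ×2.5 after centring. Low ×5 vs. Low Control, which is treated as used for the choice, had 19 calls (2.66%, beside 2.4%), 16 methylated (1.78%) and 3 demethylated (0.619%), or 11 and 7 after centring. Of the 19, 4 were CpGs of the chosen cluster, and the other 706 CpGs had 15 calls (2.12%). Low ×2.5 vs. Low Control had 12 (1.68%, beside 2%), 10 methylated (1.53%) and 2 demethylated (0.47%), but 6 and 9 after centring. Low ×5 vs. Low ×2.5 had 5 (0.699%, beside 0.371%), 4 methylated (0.229%) and 1 demethylated (0.143%), or 3 and 3. That last count was 2 without Low ×2.5 replicate 1, and 3 without Low ×2.5 replicate 2, Low ×5 replicate 1 or Low ×5 replicate 3. Leaving out Low Control replicate 1, the library whose region level lay apart from the other 2, raised the first 2 counts to 43 and 30. That library lay apart over the rest of the table too, at 69.5% beside 67.8% and 67.1%. Calls over the whole table were not counted with libraries left out.

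Between the media, High ×5 vs. Low ×5 had 11 calls (1.54%, beside 1.61%), 1 methylated (0.305%) and 10 demethylated (1.3%), but 6 and 3 after centring. The ×2.5 media, High against Low, had 8 (1.12%, beside 1.01%), 3 methylated (0.308%) and 5 demethylated (0.698%), but 7 and 4 after centring. The last count was 5 without High ×2.5 replicate 3, 2 without Low ×2.5 replicate 1 and 13 without Low ×2.5 replicate 2. High Control vs. Low Control had 13 (1.82%, beside 1.92%), 10 methylated (1.38%) and 3 demethylated (0.543%), or 8 and 7 after centring. It was 31 without Low Control replicate 1 and 8 without Low Control replicate 3. High ×5 vs. Low Control had 22 (3.08%, beside 1.75%), 13 methylated (0.94%) and 9 demethylated (0.813%), or 14 and 9.

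The EM effect was also compared between the media. At ×5, which is treated as used, 23 CpGs had a called difference (3.22%, beside 2.79%), 4 towards higher values in High medium (0.568%) and 19 towards lower (2.23%), or 7 and 12 after centring. Of these, 3 were in the chosen cluster, leaving 20 of 706 (2.83%). At ×2.5 there were 15 (2.10%, beside 1.85%), 5 higher (0.435%) and 10 lower (1.42%), but 11 and 7 after centring. The F-test of the 6 treatments called 16 (2.24%, beside 1.44%). Besides those of the comparisons used, these counts include 2 CpGs of the chosen cluster in High ×5 vs. Low ×5, 1 in High ×2.5 vs. High Control, 1 in High ×5 vs. High ×2.5, 1 between the ×2.5 media, 1 in High Control vs. Low Control and 1 for the EM effects at ×2.5. The comparisons share libraries, and no test of the shares was run.

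**Figure D4:**
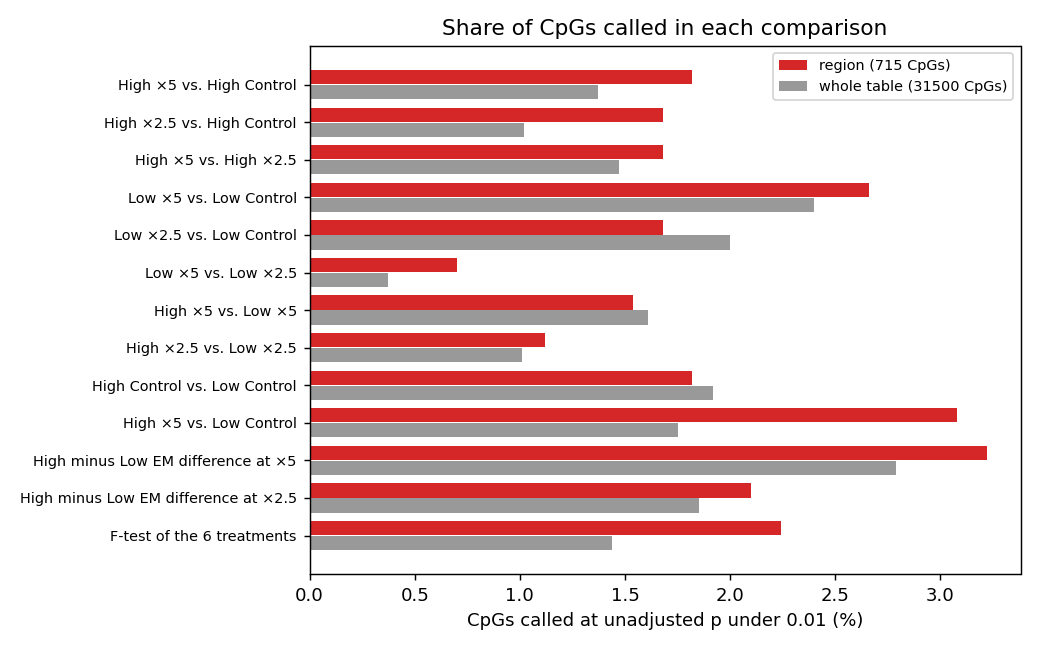
Share of CpGs called at an unadjusted p below 0.01 (%, horizontal axis from 0) in each of 13 comparisons (vertical axis), for the region's 715 CpGs in red and the whole table of 31500 in grey. The bars are of like length in most comparisons, and they lie furthest apart in High ×5 vs. Low Control, at 3.08% and 1.75%.

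Centring changed these directions because the median of the whole table shifted between treatments. The median log2 difference over the whole table was 0.10 in Low ×5 vs. Low Control, and that of the region 0.15; after centring they were −0.06 and −0.01. The corresponding medians in High ×5 vs. High Control were −0.08 and −0.09, and 0.01 and −0.0047 after centring. Of the region's CpGs, 64.6% were higher in Low ×5 than in Low Control, beside 62.0% of the table.

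Outside the 9-CpG cluster, the CpG with the smallest p in each contrast or difference of EM effects kept its direction there after centring. A choice by the smallest p makes that likely. CpG 56779123, 60.8 kb into the region, was the most set apart in High ×5, with 78.3%, 79.4% and 74.5%. No other library of the 18 exceeded 73.1%. Low Control had 61.9%, 60.8% and 57.9% there, High Control 69.4%, 62.2% and 67.1%, and Low ×5 64.4%, 62.5% and 64.2%. The log2 difference was 1.18 ± 0.218 (SE) in High ×5 vs. Low Control (adjusted p = 0.340) and 0.97 ± 0.218 in High ×5 vs. Low ×5 (adjusted p = 0.428). It was also called in High ×5 vs. High Control, at 0.80, and in High ×5 vs. High ×2.5, at 0.65.

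A pair of nearby CpGs, 56727529 and 56727532, was lower in High ×5 than in High ×2.5. Against High Control the first was called in High ×2.5 and not in High ×5 (−0.23). The second was called in High ×5 and not in High ×2.5 (0.17). The first had 76.5%, 78.6% and 75.0% in High Control, 87.9%, 92.0% and 85.0% in High ×2.5, and 80.7%, 67.6% and 71.8% in High ×5. High ×2.5 did not overlap either of the others. Its difference was 1.24 ± 0.293 in High ×2.5 vs. High Control (adjusted p = 0.949) and −1.47 ± 0.293 in High ×5 vs. High ×2.5 (adjusted p = 0.546). The second had 92.9%, 91.4% and 89.6% in High Control, 92.3%, 92.0% and 92.5% in High ×2.5, and 84.2%, 73.0% and 83.3% in High ×5, lower there than in every other library. It was called in all 4 contrasts with High ×5 as their first treatment, with differences of −1.35 (vs. High Control), −1.52 (vs. High ×2.5), −0.94 (vs. Low ×5) and −0.95 (vs. Low Control).

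CpG 56844616, 126 kb into the region, separated High Control from its supplemented forms. It had 84.9%, 82.5% and 86.4% in High Control, 78.6%, 76.1% and 75.0% in High ×2.5, and 64.5%, 69.6% and 72.1% in High ×5. Low Control, at 68.9%, 67.9% and 70.6%, lay as low as High ×5. The difference was −1.32 ± 0.286 in High ×5 vs. High Control (adjusted p = 0.444) and 1.30 ± 0.286 in High Control vs. Low Control (adjusted p = 0.411). Without the 6 libraries numbered 1 the first was −1.17 and not called.

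CpG 56802488, a site of low level, was lower in each High treatment than in the Low treatment of the same EM level. It stood at 31.0%, 31.0% and 36.0% in Low Control, 31.0%, 24.0% and 25.0% in Low ×2.5, and 27.8%, 28.0% and 29.6% in Low ×5. In High Control it had 25.5%, 25.0% and 19.2%, in High ×2.5 18.5%, 17.2% and 20.0%, and in High ×5 15.2%, 22.2% and 18.8%. At each EM level the High libraries overlapped no Low library. It had the smallest p of the F-test outside the cluster (F = 7.85, adjusted p = 0.630). The High minus Low difference was −0.69 in Control, −0.67 at ×2.5 and −0.80 at ×5, each called.

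CpG 56808412 had the smallest p outside the cluster in Low ×5 vs. Low Control and is described there without one, at 33.3%, 40.0% and 42.9% in Low Control and 59.1%, 62.5% and 62.5% in Low ×5. Low ×2.5 had 56.2%, 43.6% and 41.0% and overlapped Low Control. It was called in Low ×5 vs. Low ×2.5 (0.85), High Control vs. Low Control (0.99) and High ×5 vs. Low Control (0.88), each of which shares the Low ×5 or the Low Control libraries with the comparison of the choice. CpG 56790341 had the smallest p outside the cluster in High ×2.5 vs. Low ×2.5, with 69.2%, 65.2% and 53.8% in High ×2.5 and 79.5%, 73.1% and 76.7% in Low ×2.5. The treatments did not overlap, at −0.94 ± 0.283 (adjusted p = 0.945), and the call was lost without the libraries numbered 1 or 3.

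Another 3 named CpGs lay in the cluster at 56766040 to 56766173, which holds the place 47.0 kb after the chosen one. CpG 56766156 stood at 78.1%, 82.6% and 67.9% in Low ×2.5, above 58.8%, 53.3% and 53.3% in Low Control and 51.6%, 55.0% and 58.3% in Low ×5. Its differences were 1.42 ± 0.375 in Low ×2.5 vs. Low Control (adjusted p = 0.436) and −1.43 ± 0.375 in Low ×5 vs. Low ×2.5 (adjusted p = 1.00). The former was 1.47 without the libraries numbered 1 and 1.10 without those numbered 2, the latter −1.28 and −1.17, and none of these was called. CpG 56766081 had the smallest p outside the chosen cluster for the difference of EM effects at ×5, treated as used. It stood at 82.4%, 73.3% and 66.7% in Low Control, lower than 87.5%, 88.4% and 87.7% in Low ×2.5. That comparison shares the Control libraries with the one at ×2.5. The EM effect at ×2.5 in High minus that in Low medium was −1.92 ± 0.519 (adjusted p = 0.461). At 56766040 that value was −2.59 ± 0.673 (adjusted p = 0.423), with 91.7%, 91.5% and 95.3% in High Control and 78.8%, 82.4% and 77.8% in High ×2.5, which did not overlap. Its call was lost without the libraries numbered 2 (−2.01) or 3 (−2.20).

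**Figure D5:**
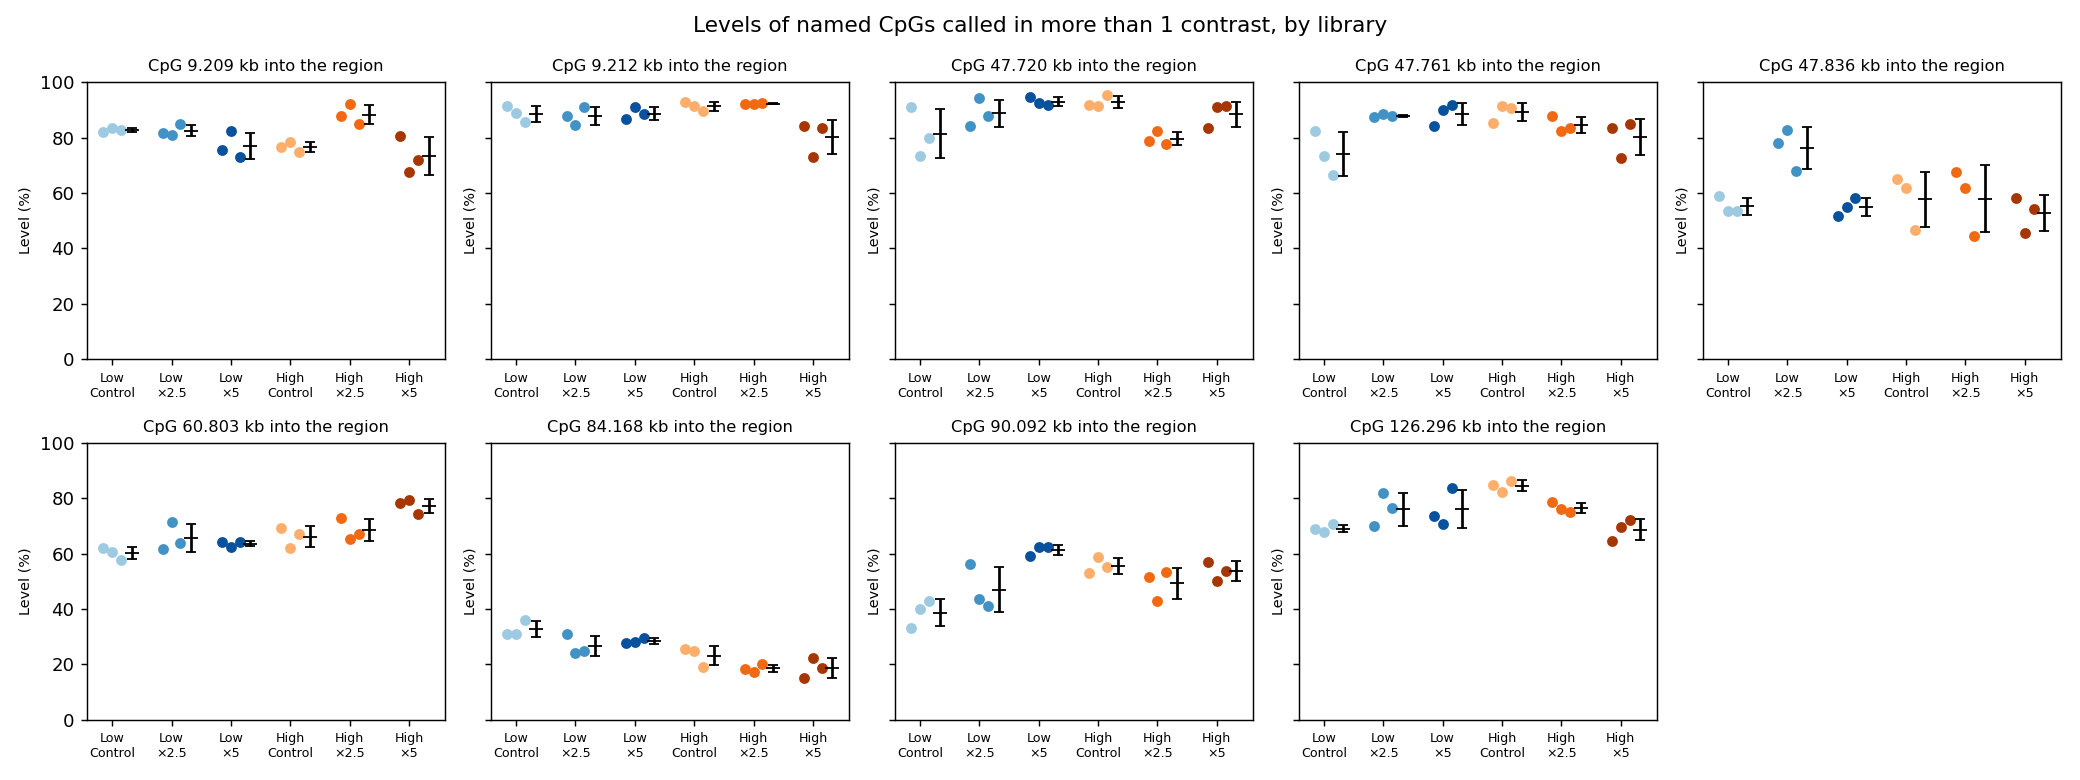
Level (%, vertical axis from 0 to 100) of 9 named CpGs in each library, by treatment (horizontal axis), each panel headed by the distance into the region (kb). Points are libraries and the bar beside them is the mean ± SD (n = 3); in the panel at 60.803 kb High ×5 lies above all other libraries, and in that at 84.168 kb each High treatment lies below the Low treatment of the same EM level.

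Because neighbouring CpGs share reads, the 66 clusters of at least 3 CpGs were also tested on their mean M-value, with limma over all 2663 clusters of the table. The chosen cluster is left out of the counts and of the smallest p-values that follow, which are those of the other 65. In Low ×2.5 vs. Low Control 2 clusters were called (3.08%, beside 2.78% of all clusters). The smallest p was at 56766040 to 56766173, 9 CpGs with 71.2% ± 5.42 (SD, n = 3) in Low Control and 82.0% ± 2.19 in Low ×2.5, a difference of 0.88 ± 0.191 on the log2 scale (adjusted p = 0.238). The same cluster had the smallest p in High Control vs. Low Control, with 79.2% ± 1.22 in High Control and 0.71 ± 0.191 (adjusted p = 0.277). In that contrast 2 were called (3.08%, beside 2.89%). Both counts fell to 0 without the libraries numbered 3. The cluster also had the smallest p in High ×5 vs. Low ×5, with a difference of −0.54, and was not called. None of the 65 was called by limma in that contrast (beside 2.44%), and 7 had an unadjusted p below 0.05. The share of all clusters at that threshold was not counted.

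The 3 CpGs at 56808394 to 56808441 were demethylated in High ×2.5 vs. High Control, at 61.5% ± 6.45 and 71.6% ± 2.61, with −0.81 ± 0.233 (adjusted p = 0.981). They were methylated in Low ×5 vs. Low ×2.5, at 75.4% ± 3.61 and 66.4% ± 4.23, with 0.70 ± 0.233 (adjusted p = 1.00). Each was the 1 cluster called in its contrast (beside 0.939% and 0.263%). The 7 CpGs at 56830397 to 56830672 had 53.3% ± 1.14 in High ×5, 58.3% ± 2.24 in High Control and 60.0% ± 2.68 in Low Control. They gave −0.38 ± 0.118 in High ×5 vs. High Control (adjusted p = 0.482), the 1 call there (beside 1.99%). In High ×5 vs. Low Control they gave −0.46 ± 0.118 (adjusted p = 0.480), 1 of 2 calls (beside 1.46%).

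None of the 65 was called by limma in High ×5 vs. High ×2.5 (beside 0.789%) or in High ×2.5 vs. Low ×2.5 (beside 0.751%). At an unadjusted p below 0.05 there were 2 and 4, again without a count over all clusters. The smallest p-values there were 0.0295, at 56735532 to 56735572, and 0.0198, at 56749573 to 56749680. In Low ×5 vs. Low Control, used for the choice, 7 clusters were called (10.8%, beside 4.09%), all methylated. For the difference of EM effects at ×5, also used, there were 6 (9.23%, beside 6.53%). At ×2.5 there were 3 (4.62%, beside 3.27%), and the F-test called 2 (3.08%, beside 1.54%). With the chosen cluster counted, Low ×5 vs. Low Control had 8, which became 3 without the libraries numbered 2 and 1 without those numbered 3.

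Outside the region, the clusters whose mean M-value followed the chosen one most closely over the 18 libraries, after centring, were 5 CpGs at 870767 to 870806 of chromosome 13, 8 at 82857228 to 82857334 of chromosome 3 and 15 at 37641558 to 37641665 of chromosome 27. Pearson's r was 0.71 for each. None of them held the 9-CpG spacing. The closest within the region, at 56816491 to 56816727, had an r of 0.65, and the median over all clusters was −0.06. These are the highest of many values, and the points share libraries.

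Of 41 genes listed as Groucho family members and partners, the study's tables, 2 of them shortened as used here, named 2 as the nearest to a measured CpG, TLE4 and TLE1. TLE1, which encodes a corepressor of the same family, had 43 CpGs at 57644240 to 57644634, with a mean level of 76.1%. Of the 43, 6 were called in at least 1 contrast (beside 9.68% of the table), and 4 in High ×5 vs. Low ×5, all demethylated (beside 1.3%). The 9-CpG spacing occurred once among them.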

How the data were processed

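Reduced representation bisulfite libraries of EBTr cells (6 treatments, n = 3) were trimmed by the authors with Cutadapt, aligned with Bismark 0.22.3 to bosTau8 and limited to CpGs passing their coverage filters. The deposited table holds log2 M-values, methylated over unmethylated reads with an offset, for 31500 CpGs and all 18 libraries. It holds no read counts, and depth and the precision it gives were not worked out from the values. Low-depth values weigh as much as others. The offset, whose size is not given in the sources used here, draws extreme levels towards the middle. Levels were computed by back-transforming M.

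Contrasts, interactions and an F-test were fitted with limma 3.58.1 (R 4.3.3) over all CpGs and libraries, and called at an unadjusted p of 0.01. A repeated contrast in the study's list was read as Low ×5 vs. Low ×2.5. Steps were tested on simulated data. Region, members, gene list and naming rule were chosen with earlier results of these data known. Named were the 9 CpGs of the cluster, the smallest p in each comparison outside it and the smallest p of another cluster in each contrast. Also named were extremes of level, CpGs called in at least 4 contrasts, and the 3 clusters most like the chosen one. The search for repeated spacing was chosen after the data were seen. CpG by CpG, the residuals of same-numbered libraries were not correlated (r from −0.106 to 0.115, mean 0.0006), and no pairing was used. Such a correlation cannot see a shift of a whole library. Replicate 1 had the highest region level in every treatment but Low ×2.5, and whether the numbers mark a batch was not tested. Alternatives changed the variance model, libraries, scaling, scale, CpGs tested and replicate block. No sequence was read.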

Additional observations from a re-analysis of the deposited data

Results flagged for a closer look

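These 5 results were singled out because the EM effect at ×2.5 differed between High and Low medium by a direct limma test (unadjusted p below 0.01), and none passed Benjamini-Hochberg adjustment. At 56766040 the High minus Low difference was −2.59 (adjusted p = 0.423), from −1.77 in High and 0.82 in Low medium. At 56766081, named from the comparison at ×5 that shares the Control libraries, it was −1.92 (adjusted p = 0.461), from −0.62 and 1.30. At 56844616 it was −1.29 (adjusted p = 0.503), from −0.76 and 0.54. At 56727529 it was 1.26 (adjusted p = 0.521), from 1.24 in High and −0.02 in Low medium. At 56834043, the CpG with a mean level of 1.20%, it was 1.65 (adjusted p = 0.524), from 0.49 and −1.16. The levels there were 0.851%, 2.17% and 2.63% in Low Control and 1.05%, 0.546% and 0.789% in Low ×2.5. At such low levels the offset and read depth bear strongly on a log2 ratio, and their part was not tested.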

How the results depend on the processing

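Depth was not worked out, so levels that rest on few reads were not set apart, and the small groups leave the counts of calls loose. Of 82 repeats over the CpGs with the smallest p, 71 kept direction and call and 11 kept direction alone, and none reversed. These CpGs were picked for the smallest p in the same libraries, so a kept direction is no separate evidence. The repeats include those of the comparisons treated as used. At an adjusted p-value under 0.05 each of the 10 contrasts had 0 CpGs. With only the 6 libraries of the contrast, High ×5 vs. High ×2.5 had 4 CpGs, High Control vs. Low Control 6 and High ×5 vs. Low Control 12; F-test and interactions need all treatments. With levels as fractions Low ×5 vs. Low ×2.5 had 3. Joining at gaps up to 1 kb left 38 CpGs.

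Leaving out libraries, singly (chosen after seeing the data) or by number, gave 4 to 18 CpGs in High ×5 vs. High Control, 5 to 14 in High ×2.5 vs. High Control, 9 to 20 in High ×5 vs. High ×2.5, 11 to 43 in Low ×5 vs. Low Control, 8 to 30 in Low ×2.5 vs. Low Control, 2 to 5 in Low ×5 vs. Low ×2.5, 8 to 16 in High ×5 vs. Low ×5, 2 to 13 in High ×2.5 vs. Low ×2.5, 7 to 31 in High Control vs. Low Control and 16 to 28 in High ×5 vs. Low Control. The difference of EM effects ranged over 15 to 25 at ×5 and 8 to 25 at ×2.5, and the F-test over 4 to 19. Without a replicate number, clusters called, the chosen one counted, ranged over 0 to 1 in High ×5 vs. High Control, High ×2.5 vs. High Control, High ×5 vs. High ×2.5, High ×5 vs. Low ×5 and the ×2.5 media compared with each other, 1 to 11 in Low ×5 vs. Low Control, 0 to 5 in Low ×2.5 vs. Low Control, 0 to 2 in Low ×5 vs. Low ×2.5, 0 to 3 in High Control vs. Low Control and 1 to 5 in High ×5 vs. Low Control. After centring, clusters numbered 0 in High ×5 vs. High Control, 1 in Low ×2.5 vs. Low Control, 0 in Low ×5 vs. Low ×2.5 and 4 in High ×5 vs. Low Control. With libraries left out, CpGs called over the whole table were not counted, and the causes were not tested.

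Libraries share only a number, and 6 of 18 correlated best with their own, a measure that a shift of a whole library does not enter. The replicate block left 5 to 24 CpGs called per comparison and took the 1 cluster of Low ×5 vs. Low ×2.5 to 0; it moved no other count by over 1.5 times. With only the places where all 9 CpGs matched, the other places' median in Low ×5 vs. Low Control was 0.22.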
